A study of Mus musculus with 42 samples.

Results

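Genes that attract, mobilise or arm neutrophils were followed in a mouse study of knee arthroplasty surgery. The set holds 5 CXC chemokines (Cxcl1, Cxcl2, Cxcl3, Cxcl5 and Ppbp), their shared receptor Cxcr2, the receptor for granulocyte colony-stimulating factor Csf3r, and the activating receptor Trem1. The 8 genes were taken by name, by matching the Ensembl identifiers of the deposited count tables to these mouse symbols, out of 54752 genes listed. All 8 were listed in both tables. Expression was measured by RNA sequencing in C57BL/6 wild-type mice, in joint soft tissue (24 libraries) and in lymph nodes (18 libraries). No age of the mice is given in the sources used here.

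The joint libraries carried the labels RST, on days 3, 7, 14, 21 and 35, and LST, on day 35, with 4 libraries in each of these 6 groups. The sources used here do not say what RST and LST stand for. Day 35 was the one LST day, so any earlier RST day differed from LST in label and day at once. The node libraries came from 3 kinds of node on days 7 and 14, with 3 libraries in each group. Implant nodes and ContraImplant nodes were taken from opposite sides of the same implanted mice, and NoImplant nodes came from other mice. The file headers mark the Implant nodes Surgery and both the ContraImplant and the NoImplant nodes NoSurgery. Which animals gave the joint replicates is not given in the sources used here. The p-values therefore measure the spread between these libraries.

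Neutrophils are short-lived white cells that leave the bone marrow and enter injured tissue along gradients of CXC chemokines. The chemokines studied here carry a glutamate-leucine-arginine motif ahead of their first cysteines and act mainly through the G-protein-coupled receptor Cxcr2 on neutrophils. Csf3r, the receptor for granulocyte colony-stimulating factor, supports the production, release and survival of neutrophils. Trem1 is a surface receptor of neutrophils and monocytes that signals through the adaptor Tyrobp and amplifies inflammatory responses. Cxcl1, Cxcl2, Cxcl3 and Cxcl5 are made by many inflamed cells, stromal and myeloid. Ppbp is different in source, being stored by platelets as platelet basic protein and trimmed by proteases into an active chemokine.

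The 5 chemokine genes lay on the plus strand of chromosome 5 within 146.6 kb (mm10, GENCODE M21 annotation). Cxcl5 occupied chr5:90759360-90761624, Ppbp chr5:90768518-90770063 and Cxcl3 chr5:90786103-90789600. Cxcl1 lay at chr5:90891241-90893115 and Cxcl2 at chr5:90903871-90905938. The receptors were unlinked, all on the plus strand, with Cxcr2 at chr1:74153989-74161246, Csf3r at chr4:126024550-126044440 and Trem1 at chr17:48232768-48246924. The Trem1 gene overlaps a processed pseudogene on the opposite strand (AC241601.2), and since the strand setting of the counting is not given in the sources used here, reads of these 2 could not be told apart.

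Promoters are shown for 4 of the chemokine genes, because Cxcl1, Cxcl2 and Cxcl3 share a short stretch before the start of transcription, and Ppbp is their neighbour without a match to it. Each line is the plus strand, 5′ to 3′, in the RefSeq annotation of GRCm38.p6. Capitals mark GGGAATTTCCC, the longest run of letters common to Cxcl1, Cxcl2 and Cxcl3 here (11 bases), which holds a form of the site bound by the inflammatory transcription factor NF-kappaB, and ATAAAAG, the letters of a TATA box. In Ppbp the capitals are the reverse complement of the second motif, so they lie on the other strand. The letters tataaaaag nearer the start of Ppbp are no exact match to it and are not marked.
Cxcl1, chr5:90891125-90891244: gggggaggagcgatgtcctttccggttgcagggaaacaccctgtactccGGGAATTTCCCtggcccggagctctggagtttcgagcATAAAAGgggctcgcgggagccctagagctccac
Cxcl2, chr5:90903779-90903898: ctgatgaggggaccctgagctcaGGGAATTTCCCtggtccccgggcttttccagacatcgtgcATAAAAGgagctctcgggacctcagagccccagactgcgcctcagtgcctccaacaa
Cxcl3, chr5:90785981-90786100: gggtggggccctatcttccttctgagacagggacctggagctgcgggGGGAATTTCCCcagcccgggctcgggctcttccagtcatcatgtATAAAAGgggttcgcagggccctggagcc
Ppbp, chr5:90768398-90768517: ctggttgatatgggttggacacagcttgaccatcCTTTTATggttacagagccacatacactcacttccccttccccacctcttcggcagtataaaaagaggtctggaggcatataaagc

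A promoter was found for 7 of the 8 genes, all but Cxcl5. Both strands of the 250 bases before each start were searched, and the letters were chosen after these promoters had been seen. The longer motif began 71 bases before the start in Cxcl1, 97 in Cxcl2 and 73 in Cxcl3, and was matched in none of the other 4 promoters. Those 4 were of Ppbp, Cxcr2, Csf3r and Trem1, and the 3 receptor genes among them, like Cxcl1, Cxcl2 and Cxcl3, lay wholly above LST on RST days 3 and 7. It was present in 14 of all 32851 promoters of the same length (0.0426%). The shorter motif began 34, 57 and 29 bases before the start in Cxcl1, Cxcl2 and Cxcl3. In Ppbp its reverse complement began 86 bases before the start. On either strand the shorter motif was present in 1588 promoters (4.83%). All these distances are to the RefSeq start. The stretches of Cxcl2 and Cxcl1 run to 90903898 and 90891244, past the GENCODE M21 gene starts at 90903871 and 90891241. The distances of these genes, above all those of Cxcl2, therefore depend on the annotation. A match describes the letters and does not show that a factor binds.

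Total counts ran from 17842090 to 28024003 in the joint libraries and from 22041900 to 44371001 in the nodes. Mature muscle markers, 8 of 8 detected, summed to between 54400 and 201000 CPM, that is counts scaled to library size, in the joint libraries. Lymph node markers, 10 of 10 detected, summed to between 3720 and 4810 CPM in the nodes, against at most 37.7 CPM in the joint. Of the 20 neutrophil markers all were detected in the joint, but Ly6g, the defining surface marker of mouse neutrophils, reached at most 0.554 CPM there and 0.349 CPM in the nodes. In bulk tissue, fewer cells of a type and less RNA per cell cannot be told apart.

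Levels are given as CPM scaled by the trimmed mean of M values (TMM). The test across all genes was edgeR's quasi-likelihood F test with Benjamini-Hochberg adjustment, 1 fit per tissue, and a gene was called at an adjusted p under 0.05. In the joint all 8 genes passed the filter on low counts, and each differed among the 5 RST days, with adjusted p between 2.78e-06 for Cxcl5 and 0.0216 for Cxcl2, where 79.6% of all 16149 genes tested did so.

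Cxcl5, a chemokine of epithelial and stromal cells, was the most abundant of the ligands per kilobase on RST days 3 and 7. Its libraries measured 18.7, 18.0, 17.2 and 12.2 CPM on RST day 3 and 24.6, 18.8, 27.9 and 37.3 CPM on RST day 7. The LST libraries measured 0.0942, 0.0456, 0.0426 and 0.102 CPM, a total of 6 counts. Every RST day 3 and day 7 library lay above every LST library, by a log2 fold change of 7.78 ± 0.96 (SE, adjusted p = 2.83e-07) on day 3 and 8.50 ± 0.94 (adjusted p = 4.08e-08) on day 7. LST held few counts, and the ratio of summed counts on day 7, 387-fold, had a 95% counting interval of 178 to 1060.

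Cxcl5 then fell in steps. It averaged 5.22 ± 3.70 CPM on day 14, against 27.1 ± 7.76 CPM on day 7 (SD, n = 4 each), with no overlap and a log2 fold change of -2.35 ± 0.54 (adjusted p = 0.00183). On day 35 the RST libraries held 0.0949, 1.08, 0.765 and 1.18 CPM, against 1.92, 15.7, 1.54 and 2.13 CPM on day 21. That step had a log2 fold change of -2.84 ± 0.70 (adjusted p = 0.0294), but without RST day 21 replicate 2, the library at 15.7 CPM, it was -1.28 with adjusted p = 0.459. The call was also lost without RST day 35 replicate 1, 2 or 3, with adjusted p of 0.106, 0.0759 and 0.0912.

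Cxcl1, known as KC in mice, was likewise high on RST days 3 and 7. It measured 4.78, 4.40, 3.12 and 1.77 CPM on RST day 3 and 5.50, 3.59, 7.46 and 5.48 CPM on RST day 7, against 0.612, 0.182, 0.170 and 0.307 CPM in LST. No library of either day overlapped LST, and the log2 fold changes were 3.46 ± 0.66 (adjusted p = 7.54e-05) and 4.11 ± 0.65 (adjusted p = 5.38e-06). It fell to 1.96 ± 1.79 CPM on RST day 14, against 5.51 ± 1.58 CPM on day 7 (SD, n = 4 each), a log2 fold change of -1.44 ± 0.50 (adjusted p = 0.0270). That call ended without RST day 7 replicate 3 or RST day 14 replicate 1, 3 or 4, with adjusted p between 0.0809 and 0.0886.

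By RST day 35 Cxcl1 measured 0.285, 0.377, 0.382 and 0.616 CPM, and only the highest of these libraries lay above the LST range. The log2 fold change over LST was 0.39 ± 0.85 with a 95% interval of -1.38 to 2.16.

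Cxcl2, known as MIP-2 and made strongly by activated macrophages and neutrophils, had its highest group means on RST days 7 and 14. It measured 2.14, 3.01, 3.63 and 1.32 CPM on RST day 3 and 6.75, 7.09, 9.13 and 6.16 CPM on RST day 7. LST held 1, 3, 0 and 0 counts in its 4 libraries, the highest of them 0.137 CPM. The log2 fold changes over LST were 5.61 ± 1.37 (adjusted p = 0.001) on day 3 and 7.14 ± 1.24 (adjusted p = 1.98e-05) on day 7. All day 7 libraries stood above all day 3 libraries, although the step did not pass the test (log2 fold change 1.53 ± 0.69, adjusted p = 0.0807).

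On RST day 14 the Cxcl2 libraries split, at 12.9 and 12.8 CPM in replicates 1 and 2 and at 2.44 and 1.35 CPM in replicates 3 and 4. On RST day 21 they held 2.04, 15.7, 1.54 and 2.18 CPM. On RST day 35 they held 0.380, 0.863, 0.860 and 3.49 CPM, still all above LST. Day 35 was not called different from day 3 for this gene (log2 fold change -0.86 ± 0.79, adjusted p = 0.350), with a 95% interval of -2.49 to 0.77.

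Cxcl3, a close relative of Cxcl1 and Cxcl2, showed no called step within the first week (log2 fold change of day 7 over day 3 0.04 ± 0.54, 95% interval -1.09 to 1.17). It measured 2.74, 4.43, 2.82 and 1.36 CPM on RST day 3 and 3.49, 2.89, 2.81 and 2.52 CPM on RST day 7. The LST libraries held a single count in all. RST lay wholly above LST on both days (adjusted p = 1.06e-05 on day 3 and 6.6e-06 on day 7). The ratio of summed counts was 248-fold on day 3 (95% counting interval 44.2 to 9840) and 251-fold on day 7 (44.8 to 9950). It measured 1.31, 2.26, 0.753 and 0.990 CPM on RST day 14 and 0.679, 5.24, 0.548 and 0.347 CPM on RST day 21. On RST day 35 its libraries held 0.190, 0.216, 1.15 and 0.872 CPM, which left a ratio of 52.8-fold over LST (9.04 to 2130).

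Ppbp overlapped LST on every RST day. It measured 1.49, 5.05, 2.56 and 1.28 CPM on RST day 3, against 1.98, 0.866, 1.28 and 0.256 CPM in LST. The log2 fold change of 1.24 ± 0.47 passed the test (adjusted p = 0.0238), but not without RST day 3 replicate 2, the library at 5.05 CPM (0.68, adjusted p = 0.206), LST replicate 2 (1.14, adjusted p = 0.0608) or LST replicate 4 (0.93, adjusted p = 0.0806).

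On RST day 7 Ppbp measured 0.707, 0.890, 1.51 and 0.576 CPM, which overlapped LST, with a log2 fold change of -0.25 ± 0.50 (adjusted p = 0.660). The step between days 3 and 7 was a fall of 1.49 ± 0.47 on the log2 scale (adjusted p = 0.0139), which ended without RST day 3 replicate 2 (-0.93, adjusted p = 0.118). On the later days it ranged over 0.225 to 1.06 CPM on RST day 14 and 0.329 to 0.887 CPM on RST day 21, with no call against LST. For day 14 it was called lower than LST without RST day 14 replicate 2 or without LST replicate 4. On RST day 35 it measured 0.427, 0.323, 0.335 and 0.462 CPM, against the wider LST spread given above. There the log2 fold change was -1.5 ± 0.59, with an unadjusted p of 0.0191 and an adjusted p of 0.240.

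The summed level of the platelet markers was higher on RST day 3 than in LST. All 11 were detected, with Gp1bb at 0 on day 3, and they summed to between 59.8 and 89.8 CPM on RST day 3, 32.9 and 46.2 CPM on RST day 7, and 11.3 and 16.3 CPM in LST. On these RST days most of the sum was Pf4, which encodes platelet factor 4 and lies between Ppbp and Cxcl3 on chromosome 5. In LST it was not, and without Pf4 the mean sum was lower on RST day 3 than in LST. Pf4 measured 84.1, 72.1, 53.1 and 57.0 CPM on RST day 3, against 6.31, 3.74, 5.07 and 3.84 CPM in LST. Of the 3 platelet markers that passed the filter, Pf4 (log2 fold change 3.81 ± 0.26, adjusted p = 1.2e-10) and Itga2b (0.87 ± 0.29) were higher on RST day 3 and Gp1ba was lower (-1.23 ± 0.20), as 30.1% of all genes were. Below the filter, Gp9, Treml1 and Clec1b averaged 0.0878, 0.15 and 0.318 CPM on RST day 3, against 0.111, 0.141 and 0.224 CPM in LST. The part of these markers in the Ppbp result was not tested.

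**Figure D1:**
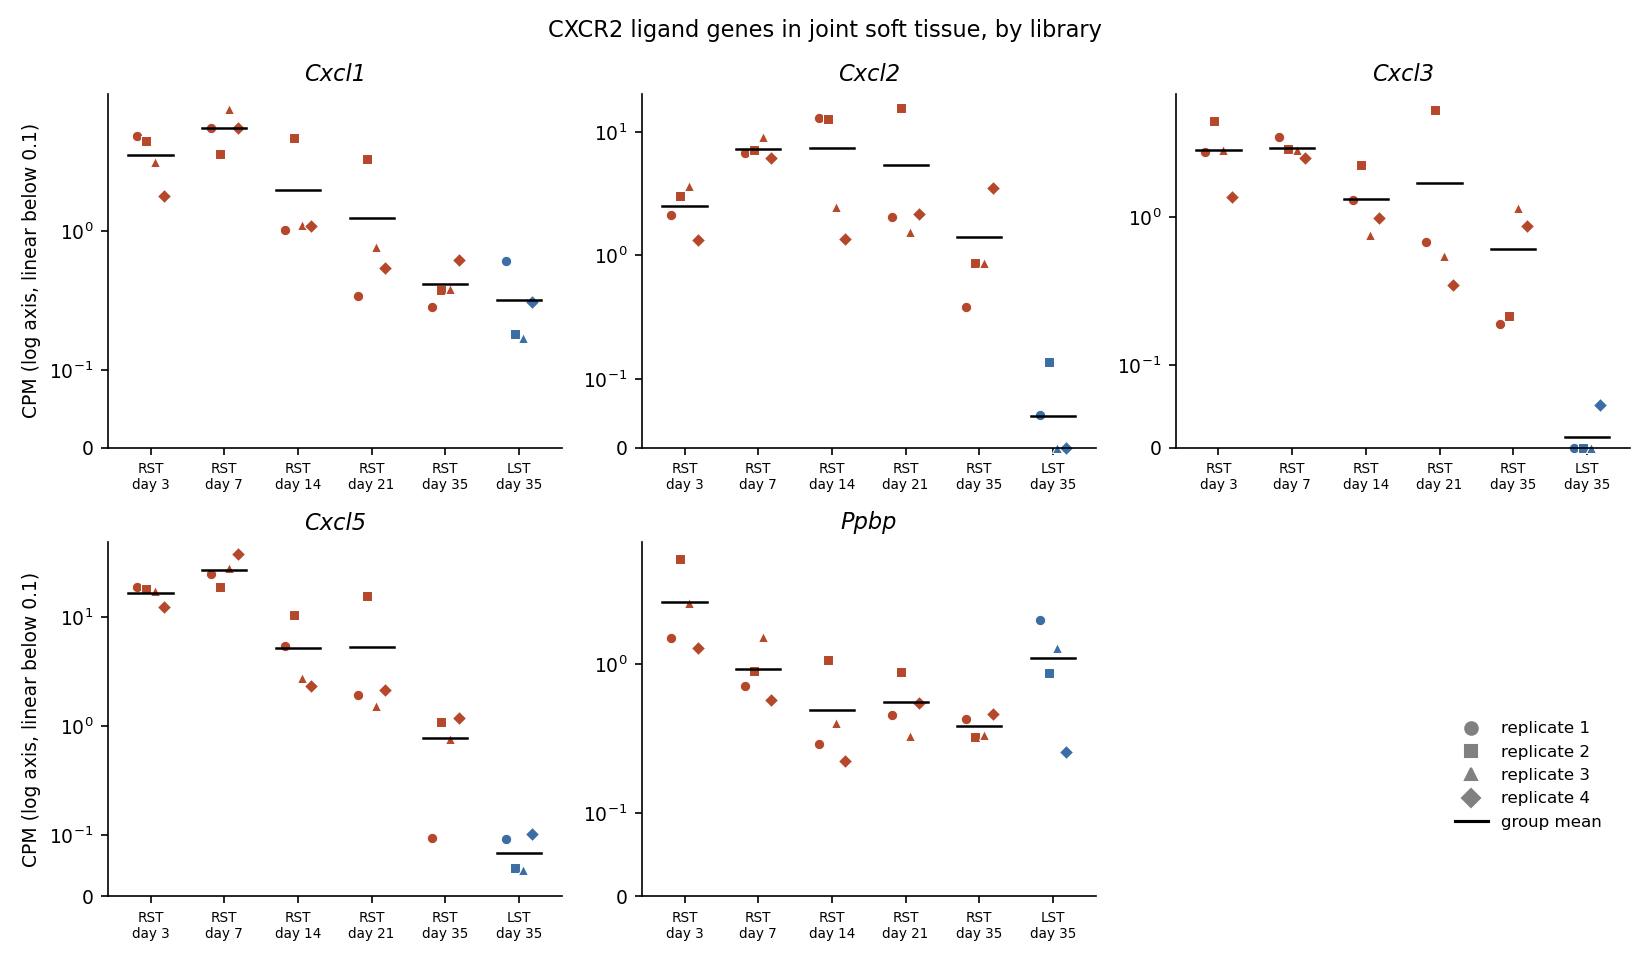
CPM of the 5 chemokine genes in each joint library, by RST day and then LST day 35, on an axis that is linear below 0.1 CPM and logarithmic above. Circle, square, triangle and diamond are replicates 1 to 4 and each line is the group mean; Cxcl1, Cxcl2, Cxcl3 and Cxcl5 lie above all LST libraries on RST days 3 and 7, while Ppbp overlaps LST on every day.

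The 5 ligand transcripts are of different length, so they are compared as CPM per kilobase of the longest protein-coding transcript. Summed in this way the ligands averaged 20.7 ± 5.79 CPM per kb on RST day 3, 30.7 ± 5.77 on day 7, 11.1 ± 7.94 on day 14, 9.74 ± 12 on day 21, 2.64 ± 1.45 on day 35 and 1.43 ± 0.806 in LST (SD, n = 4 each). Cxcl5 made up 52.1 ± 7.21% of the sum on RST day 3 and 55.6 ± 7.17% on RST day 7, against 4.15% in LST. Ppbp made up 11% on day 3 and 2.82% on day 7, against 66.2 ± 21.6% in LST. The share of Cxcl2 was 6.49% on day 3, 13.1% on day 7 and 31.5 ± 16.0% on day 14, and 24.6% on RST day 35, against 1.93% in LST.

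Among the receptors, Csf3r was the most abundant per kilobase in every joint group. Its libraries measured 18.0, 21.6, 19.1 and 21.2 CPM on RST day 3 and 9.97, 11, 19.5 and 14.4 CPM on RST day 7, against 1.60, 0.274, 0.554 and 0.205 CPM in LST. Neither RST day overlapped LST, and the log2 fold changes were 4.91 ± 0.71 (adjusted p = 2.52e-06) and 4.37 ± 0.71 (adjusted p = 8.27e-06). The day 3 libraries were tightly grouped, with an SD of 1.72 CPM (n = 4). The step from day 3 was not called on day 7 (-0.54 ± 0.52, adjusted p = 0.425). Csf3r on RST day 35 measured 1.09, 1.19, 0.908 and 2.93 CPM, which overlapped LST through LST replicate 1 alone.

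Cxcr2, which binds all 5 ligands, measured 2.69, 5.16, 4.40 and 2.26 CPM on RST day 3 and 1.37, 2.16, 5.11 and 3.57 CPM on RST day 7. LST measured 0.424, 0.0912, 0.256 and 0.0512 CPM, below every library of both days. The log2 fold changes were 4.09 ± 0.80 (adjusted p = 0.000102) and 3.84 ± 0.80 (adjusted p = 0.000167). On RST day 35 it measured 0.0949, 0, 0.143 and 0.616 CPM, which straddled LST, with a log2 fold change of 0.03 ± 1.17. The 95% interval of that difference, -2.40 to 2.46, is wide at this depth.

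Trem1 measured 3.11, 3.46, 3.42 and 1.81 CPM on RST day 3 and 2.87, 2.48, 3.70 and 4.43 CPM on RST day 7, against 4 counts over the 4 LST libraries, the highest at 0.102 CPM. The log2 fold changes were 5.83 ± 0.96 (adjusted p = 1.27e-05) and 6.02 ± 0.94 (adjusted p = 5.04e-06). On RST day 35 it measured 0.190, 0.431, 0.239 and 1.03 CPM, all above LST, with a ratio of summed counts of 9.96 (95% counting interval 3.58 to 38.5).

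**Figure D2:**
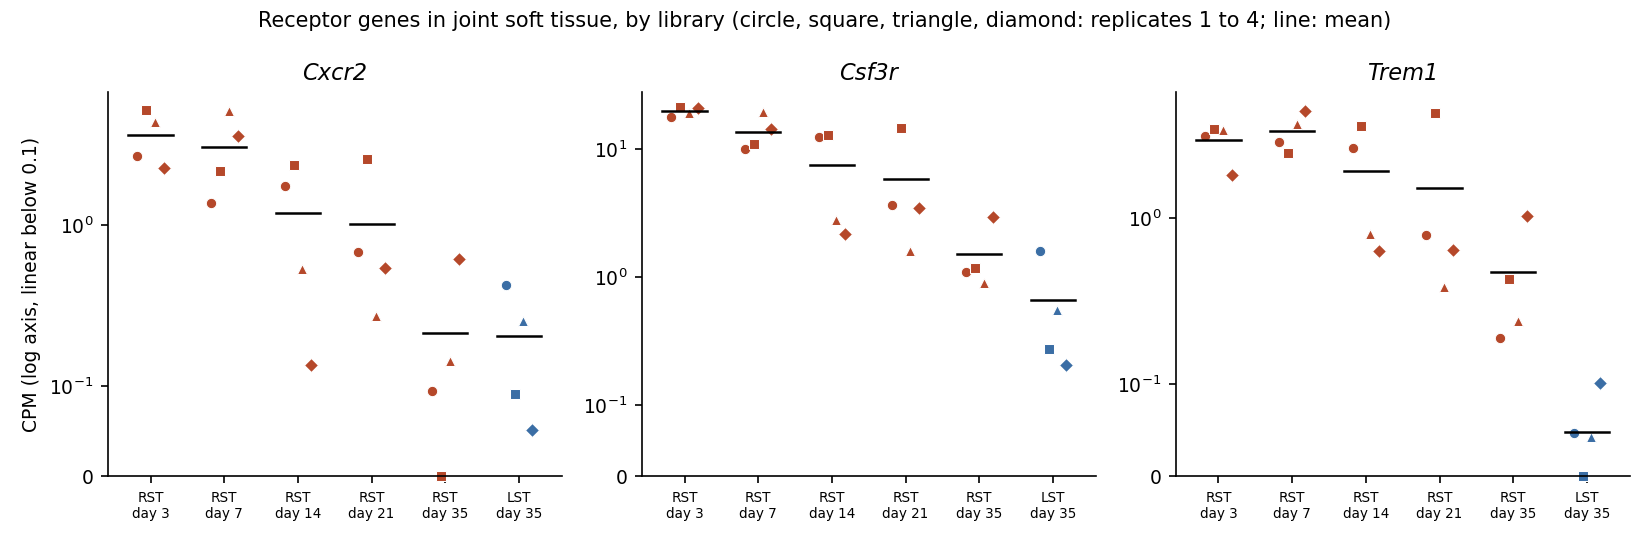
CPM of Cxcr2, Csf3r and Trem1 in each joint library, drawn as in the plot of the ligands, with marker shapes for replicates 1 to 4 and lines at group means. All libraries of RST days 3 and 7 lie above LST for the 3 receptors, and on day 21 replicate 2 stands above the other libraries.

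Set against LST, all 8 genes were called higher on RST day 3, where 38.6% of all genes tested were, and 7 did not overlap LST, where 35.4% of all genes lay wholly above it. On RST day 7, 7 were called higher (41% of all genes), Ppbp being the exception, and the same number lay wholly above LST (39%). On RST day 14, 7 were called higher (33.4%) and 6 lay wholly above LST (30.5%). On RST day 21, 6 were called higher (21.7%) and 4 lay wholly above LST (18.9%). The median log2 fold change of the 8 genes was 5.26, 5.19, 4.38 and 4.06 on these days, where the median of all genes was 0.0858, 0.0790, 0.0347 and 0.0191. Scaled by library size alone in place of TMM, the median of all genes moved to 0.61, 0.707, 0.327 and 0.136 on these days, and 85%, 82.9%, 87.6% and 91.8% of called genes were higher, against 56.2%, 53.9%, 57.6% and 80% with TMM. The number of the 8 genes called on each day was the same under both scalings.

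Markers of other cell types moved on the same days. The 12 monocyte and macrophage markers, all detected and all called higher on both days, summed to between 1570 and 2430 CPM on RST day 3 and 1230 and 1720 CPM on RST day 7, against 87.7 to 122 CPM in LST. Of all genes, 38.6% were called higher on RST day 3 and 41% on RST day 7. The 8 fibroblast and synovial markers, all detected, summed to between 6370 and 7720 CPM on RST day 3 and 20000 and 26200 CPM on RST day 7, against 588 to 737 CPM in LST. The 8 mature muscle markers, all called lower, summed to between 70500 and 97900 CPM on RST day 3 and 54400 and 92000 CPM on RST day 7, against 186000 to 201000 CPM in LST. Called lower were 30.1% of all genes on RST day 3 and 35.1% on RST day 7. Scaled by size alone, 7 of the 8 muscle markers were called lower on RST day 3 and all 8 on RST day 7. None of the markers in these 3 lists was at 0 in any of these groups, and their part in the comparisons with LST was not tested.

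On RST day 14 the smallest called change was that of Cxcr2, at 2.52 ± 0.87 (adjusted p = 0.0164), which was lost without RST day 14 replicate 2 (1.90, adjusted p = 0.103). On RST day 21 Cxcr2 missed the threshold at 2.33 ± 0.89 (adjusted p = 0.0548). Cxcl1 was called there at 2.02 ± 0.72 (adjusted p = 0.0391), a call that ended without RST day 21 replicate 2 (0.80, adjusted p = 0.519) and without LST replicate 2, 3 or 4 (adjusted p of 0.102, 0.102 and 0.0747). The other 5 calls of day 21 held without RST day 21 replicate 2, although at lower log2 fold changes: Cxcl2 5.21, Cxcl3 4.95, Cxcl5 4.64, Csf3r 2.13 and Trem1 3.56.

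On the one day sampled under both labels, none of the 8 genes was called by edgeR between RST day 35 and LST day 35, where 2.97% of all genes were, and 5 had an unadjusted p under 0.05. Cxcl2 (log2 fold change 4.75 ± 1.51, adjusted p = 0.101), Cxcl3 (5.18 ± 1.54, adjusted p = 0.0729) and Trem1 (3.18 ± 1.25, adjusted p = 0.236) lay wholly above LST in all 4 libraries, as 10.1% of all genes did. Cxcl5 had a log2 fold change of 3.36 ± 1.43 (adjusted p = 0.294) and overlapped LST by 1 library. DESeq2, run as an alternative without the filter on low counts, called 4.4% of the genes to which it gave an adjusted p. It called these 4 higher, with adjusted p of 0.000601 for Cxcl2, 0.00067 for Cxcl3, 0.0187 for Trem1 and 0.00663 for Cxcl5. Run without that filter, edgeR called Cxcl2 (adjusted p = 0.00923) and Cxcl3 (adjusted p = 0.00708) higher. Csf3r (1.19 ± 0.84), Cxcl1, Cxcr2 and Ppbp were called in none of these fits.

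**Figure D3:**
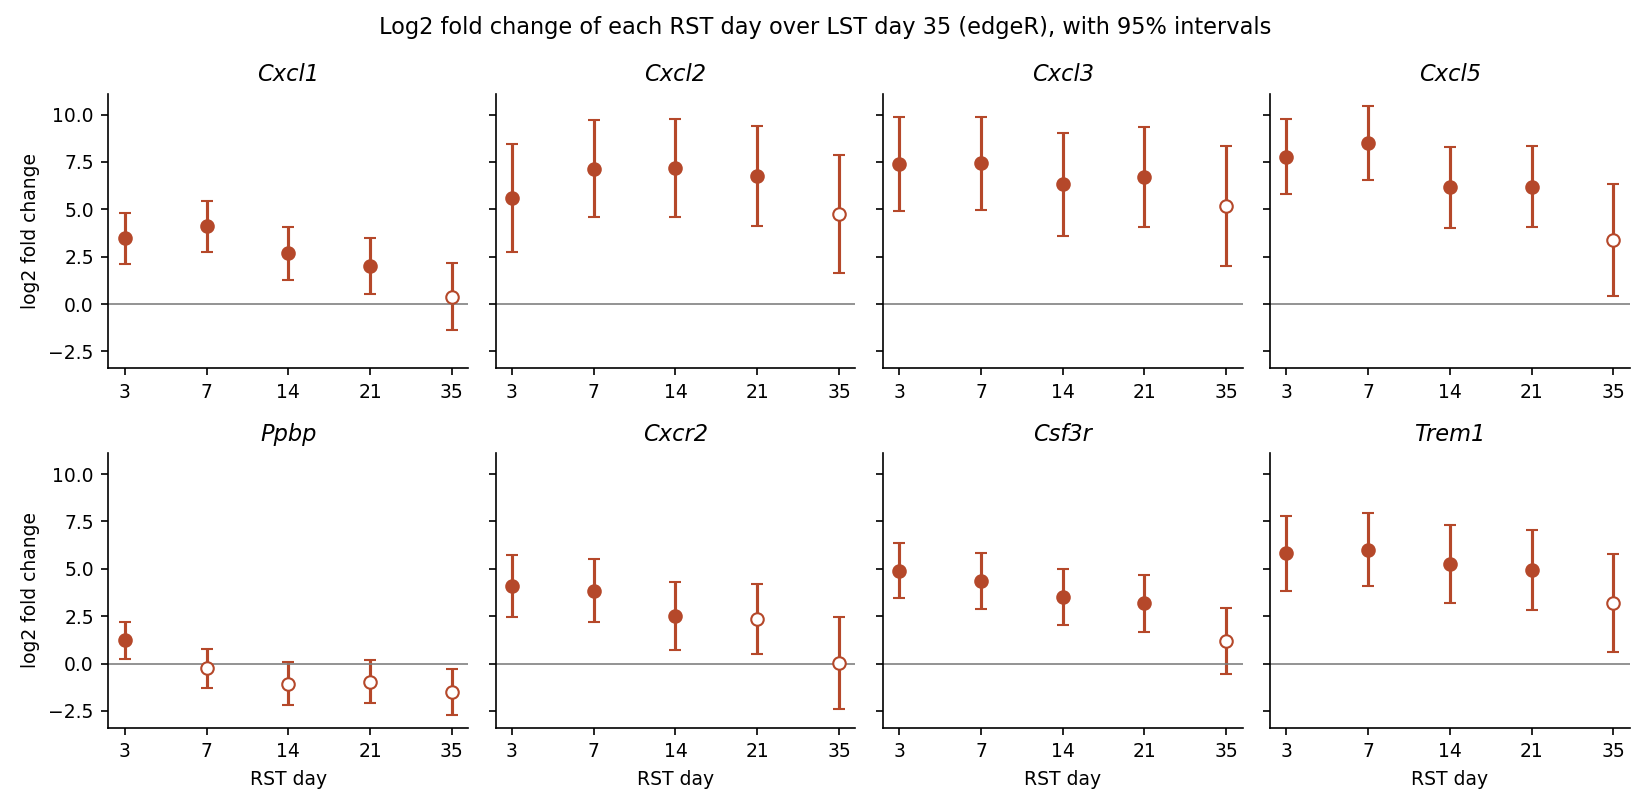
Log2 fold change of each RST day over LST day 35 for the 8 genes, with 95% intervals; filled points have an adjusted p under 0.05 and open points do not. The 8 points of day 3 are filled and the 8 points of day 35 are open, some of them with intervals that exclude 0 before adjustment for all genes tested, and the fitted values of Cxcl3 rest on 1 count in LST.

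Within RST, day 35 was lower than day 3 for 7 of the 8 genes, where 34.8% of all genes were called lower, and these 7 did not overlap day 3 (31.3% of all genes). The largest falls were those of Cxcl5 at 4.42 ± 0.68 (adjusted p = 7.61e-06), Cxcr2 at 4.06 ± 0.81 and Csf3r at 3.71 ± 0.64 (adjusted p = 3.04e-05) on the log2 scale. Cxcl1 fell by 3.07, Ppbp by 2.74, Trem1 by 2.65 and Cxcl3 by 2.21, and Cxcl2 was the gene not called. Single steps rarely passed the test. Between days 7 and 3, Ppbp alone was called, and lower (22.5% of all genes were lower), and Cxcl2 and Cxcl5 lay wholly above day 3 (17.9%). Between days 14 and 7, Cxcl1 and Cxcl5 were called lower (18% of all genes), and Cxcl3 and Cxcl5 lay wholly below day 7 (16.1%). Without RST day 14 replicate 2 the number called lower was 4, and 46.7% of all genes were then called in either direction.

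Between RST days 21 and 14 edgeR and DESeq2 called none of the 8, where edgeR called 0.737% of all genes, and none had an unadjusted p under 0.05. Without RST day 21 replicate 2, 4 of the 8 were called lower on day 21, and 27.7% of all genes were then called in either direction. Between RST days 35 and 21 only Cxcl5 was called lower (3.89% of all genes), and it was also the only gene of the 8 without overlap (5.55%), while without RST day 21 replicate 3 the number called was 3, with 11.8% of all genes called in either direction.

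RST day 21 replicate 2 stood above its group in most of the set. It held 15.7 CPM of Cxcl2, 15.7 of Cxcl5, 14.8 of Csf3r, 5.24 of Cxcl3, 4.28 of Trem1 and 3.27 of Cxcl1, against at most 2.18, 2.13, 3.68, 0.679, 0.792 and 0.768 CPM in the other 3 libraries of the day. The 20 neutrophil markers summed to 139 CPM in that library, against 33.5, 22.3 and 81.5 CPM in replicates 1, 3 and 4. The 12 monocyte and macrophage markers summed to 983 CPM, against 479, 323 and 648 CPM. Il1b, the inflammatory cytokine interleukin-1 beta, measured 25.2 CPM, against 3.68, 2.47 and 2.97 CPM. Their part in the result was not tested.

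On RST day 14 the division among libraries ran the same way in several genes. Csf3r measured 12.4, 13, 2.79 and 2.16 CPM and Trem1 2.66, 3.61, 0.798 and 0.630 CPM, so that replicates 1 and 2 were high and replicates 3 and 4 low, as for Cxcl2. Cxcr2 (1.74, 2.35, 0.532 and 0.135 CPM) and Cxcl5 (5.42, 10.4, 2.75 and 2.34 CPM) split at the same place. Cxcl1 did not, at 1.02, 4.64, 1.11 and 1.08 CPM. Neutrophil markers summed to 99.7, 174, 49.5 and 82.8 CPM over these libraries, and their part in the split was not tested.

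Of the 20 neutrophil markers 17 passed the filter. On RST day 3, 9 were higher (38.6% of all genes) and none lower than in LST, among them Itgam, an integrin of myeloid cells (log2 fold change 4.78 ± 0.32), Padi4, which citrullinates histones (3.62 ± 0.37), and Lcn2, an iron-sequestering granule protein (2.90 ± 0.51). Camp (-0.32 ± 0.83), Elane (-0.34 ± 0.92) and Mpo (-0.14 ± 0.93), which encode granule proteins, were not called. On RST day 7, 5 were higher, a smaller share than the 41% of all genes, and on RST day 35 Itgam alone (1.35 ± 0.34, adjusted p = 0.0292, 2.97% of all genes), a call lost when libraries were scaled by size alone. The median log2 fold change of the 17 markers over LST was 1.60 on RST day 3, 0.088 on day 7, -0.371 on day 14, -0.363 on day 21 and -1.65 on day 35. The LST libraries were uneven, with neutrophil marker sums of 88.9, 17.1, 40.3 and 10.7 CPM. S100a8, a calcium-binding protein abundant in neutrophils, measured 12.7 CPM in LST replicate 1 and 2.10, 4.17 and 1.33 CPM in the other 3 LST libraries. Csf3r, Cxcr2, Cxcl1 and Ppbp were likewise highest in LST replicate 1, and the part of these markers in the comparisons with LST was not tested.

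Most genes of the wider lists around the set were also higher in the early RST joint. Of 23 further genes that attract or mobilise neutrophils, 16 passed the filter, and 13 were higher on RST day 3 than in LST (38.6% of all genes), with a median log2 fold change of 2.79. They included C5ar1, the receptor for complement fragment C5a (4.39 ± 0.37), Ptafr, the receptor for platelet-activating factor (3.64 ± 0.40), and Il17ra, a subunit of the interleukin-17 receptor (2.91 ± 0.23). On RST day 7, 14 were higher (41% of all genes), and none was lower on either day. On RST day 35 the smallest adjusted p among them was 0.123, for C5ar1 (1.19 ± 0.40). Csf3, which encodes the ligand of Csf3r, did not pass the filter and reached at most 0.363 CPM in any joint library. Cxcr1, the sister receptor of Cxcr2, was at 0 in all 4 LST libraries and reached at most 0.164 CPM.

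Of 13 genes that signal downstream of Cxcr2 and Csf3r, 8 were higher and 3 lower on RST day 3 than in LST, where 38.6% of all genes were higher and 30.1% lower. Scaled by size alone, 10 were higher and 0 lower, beside the shift of all genes under that scaling given above. Higher were Socs3, an inhibitor of cytokine receptors (3.89 ± 0.30), the kinase Lyn (2.84 ± 0.21), and Arrb2, a beta-arrestin that desensitises chemokine receptors (2.54 ± 0.17). Socs3 was the one gene of this list called on RST day 35 (1.06 ± 0.29, adjusted p = 0.0493), and it too was lost with scaling by size alone. Of 9 genes of the TREM family and its partners that passed the filter, all 9 were higher on RST days 3 and 7 (38.6% and 41% of all genes). Trem2, a macrophage receptor that shares the adaptor Tyrobp with Trem1, had a log2 fold change of 7.24 ± 0.41 on RST day 3 and 3.84 ± 0.45 on RST day 35, and Tyrobp 4.79 ± 0.35 and 1.72 ± 0.35. Both were called on each of these days, whereas Trem1 was not called on day 35; whether the genes differed from each other was not tested.

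The genes with group profiles nearest to each member were found among 13729 joint genes, by the root mean square difference of log2 group means over the 6 joint groups. For Csf3r they were Fgr (0.138), Ccr1 (0.178) and Tlr1 (0.190), and for Trem1 Runx1 (0.112), Sfrp2 (0.148) and Cenpf (0.153). Nearest to Cxcl1 were Igfbp2 (0.148), Has2 (0.150) and Pcsk5 (0.203), and nearest to Cxcl2 were Tnc (0.068), Crabp2 (0.156) and Slc7a11 (0.282). For Cxcl3 they were Lilrb4a (0.231), Sfrp2 (0.233) and Cd84 (0.273). On this unscaled measure Cxcl5 had no profile as near, its first being Mymk (0.499), Postn (0.542) and Slpi (0.555). Among the nearest to Cxcr2 were Cenpi (0.232) and Shcbp1 (0.244), and for Ppbp they were Pnmt (0.246), Eda2r (0.289) and Tekt1 (0.293). In the nodes, among 14177 genes, the nearest were Zfp985 to Cxcl1 (0.1), Zfp92 to Cxcr2 (0.1), Prox1 to Csf3r (0.0459) and Nup62cl to Trem1 (0.0787). The differences are not scaled to the spread of a gene's own profile, so they do not rank likeness across genes or tissues. That spread, the root mean square about the profile's mean, was 2.55 for Cxcl5 and 0.785 for Ppbp in the joint. In the nodes it ran from 0.295 for Cxcl1 to 0.406 for Cxcr2. With 6 points per profile these values describe likeness and nothing more.

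In the lymph nodes the receptors were abundant and the ligands scarce. The 3 receptors summed to a group mean of between 8.02 and 15.5 CPM per kb in the 6 node groups, and the 5 ligands to between 1.18 and 2.90 CPM per kb. The ratio of receptors to ligands averaged between 6.22 and 9.59 in the node groups, against between 0.172 and 0.405 in the joint groups. The 2 tables were normalised separately, so this is a description and was not tested. Csf3r and Trem1 are in the receptor sum but are not receptors of the 5 ligands. The ratio therefore does not measure the ligands against their own receptor, Cxcr2. Cxcr2 and Csf3r carried the receptor sum. Only Cxcl1, Cxcr2, Csf3r and Trem1 passed the filter on low counts in the nodes.

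**Figure D4:**
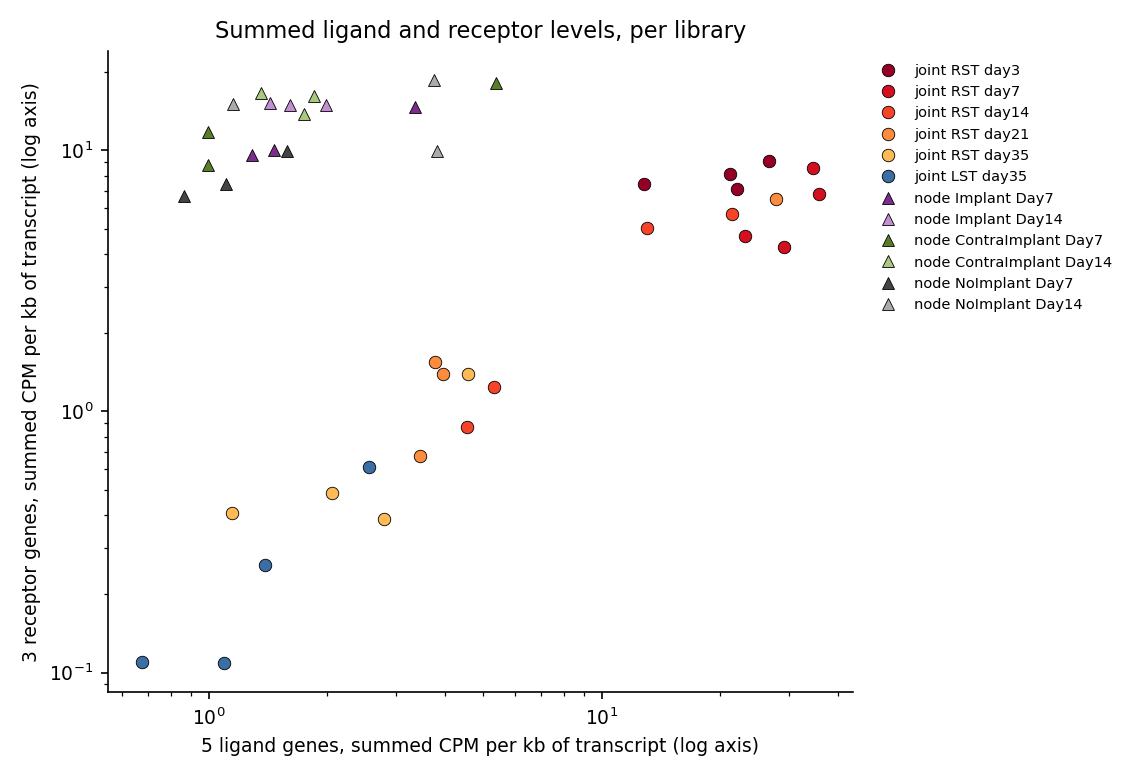
Summed CPM per kb of the 5 ligands (horizontal) and the 3 receptors (vertical) in each library, on log axes, with joint libraries as circles and node libraries as triangles. The node libraries, at up to 5.38 for ligands, lie to the left of the RST day 3 and day 7 joint libraries, at 12.8 or more, and node group means run from 8.02 to 15.5 for receptors.

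Cxcr2 on day 7 measured 24.1, 18.9 and 17.8 CPM in Implant nodes, 25.2, 14.7 and 12.6 CPM in ContraImplant nodes, and 11.5, 14.3 and 8.62 CPM in NoImplant nodes. All Implant libraries stood above all NoImplant libraries, the only gene of the 8 to do so, where 17% of all genes did. The log2 fold change was 0.82 ± 0.31, with an unadjusted p of 0.0175, and was not called (adjusted p = 0.179). On day 14 Cxcr2 measured 24.9, 28.3 and 28.7 CPM in Implant nodes, 17.2, 26.3 and 29.6 CPM in ContraImplant nodes, and 12.8, 28.8 and 23.9 CPM in NoImplant nodes, and all groups overlapped.

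Csf3r on day 7 measured 22.0, 10.8 and 13.4 CPM in Implant nodes, 32.2, 22.8 and 15.4 CPM in ContraImplant nodes, and 12.1, 17.1 and 12.8 CPM in NoImplant nodes. The highest values were on the side opposite the implant, and the Implant and ContraImplant groups overlapped. The edgeR fit, which did not pair nodes of one mouse, gave a log2 fold change of -0.60 ± 0.28 (unadjusted p = 0.0463, adjusted p = 0.236). ContraImplant over NoImplant was 0.74 ± 0.28 (unadjusted p = 0.0179, adjusted p = 0.664). On day 14 it measured 23.2, 18.2 and 17.6 CPM in Implant nodes, 26.2, 26.3 and 21 CPM in ContraImplant nodes, and 18.8, 29.9 and 23.5 CPM in NoImplant nodes. The values are in the order of the mice, and on both days each Implant library lay below the ContraImplant library of the same mouse. How many of all genes kept this order was not counted, and Cxcr2, Trem1 and Cxcl1 did not keep it on day 7. With the animal as a block Csf3r was not called on either day.

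Trem1 was near 1 CPM in every node group, with group means between 0.651 and 1.26 CPM. Cxcl1 was the most abundant ligand per kilobase in 5 of the 6 groups and averaged between 0.788 and 1.95 CPM. Its highest library was ContraImplant day 7 replicate 1, at 4.46 CPM, against 0.668 and 0.737 CPM in the other 2 of that group. Leaving that library out turned the sign of Cxcl1 in Implant over ContraImplant on day 7, to 1.12 without it and -0.33 ± 0.59 with it, neither called. Mature muscle markers summed to between 5.99 and 836 CPM over the ContraImplant day 7 libraries and reached 1350 CPM in a NoImplant day 7 library, and their part in these values was not tested.

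The ligands that did not pass the filter were at trace level, with group means of at most 0.371 CPM, except Ppbp on day 14. Ppbp measured 3.35, 2.17 and 0.0936 CPM in NoImplant nodes on day 14 (88, 61 and 3 counts), against at most 0.183 CPM in the other 15 node libraries. The difference in mean between Implant and NoImplant nodes on day 14 gave an exact two-sided permutation p of 0.2, where 3 against 3 libraries cannot go below 0.1. Fitted without the filter on low counts, that difference had a log2 fold change of -4.76 ± 0.93 (adjusted p = 0.0147). Among platelet genes, Gp9 and Treml1 were also higher in NoImplant replicates 1 and 2 than in replicate 3, and Clec1b was not. Gp9 measured 0.533, 0.570 and 0.0624 CPM, Treml1 0.609, 0.428 and 0.187 CPM, and Clec1b 11.9, 16.6 and 14.3 CPM in these 3 NoImplant libraries. All 11 platelet markers summed to 166, 104 and 163 CPM in these 3 libraries. On day 14 they summed to 78.0 to 118 CPM in Implant nodes and 139 to 163 CPM in ContraImplant nodes. Most of these sums was Itga2b, at a mean of 119 CPM in NoImplant, 83.3 CPM in Implant and 131 CPM in ContraImplant nodes. Ppbp was at most 0.131 CPM in ContraImplant nodes on that day. The part of these markers in the Ppbp values was not tested.

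Cxcl5 on day 14 measured 0.349, 0.270 and 0.375 CPM in Implant nodes, 0.321, 0.236 and 0.555 CPM in ContraImplant nodes, and 0.152, 0.178 and 0 CPM in NoImplant nodes. Both kinds of node from implanted mice lay wholly above NoImplant, as 16.8% of all genes did for Implant and 5.36% for ContraImplant. The exact two-sided permutation p was 0.1 in each, the smallest that 3 against 3 allows, and the groups summed to 26, 32 and 9 counts.

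**Figure D5:**
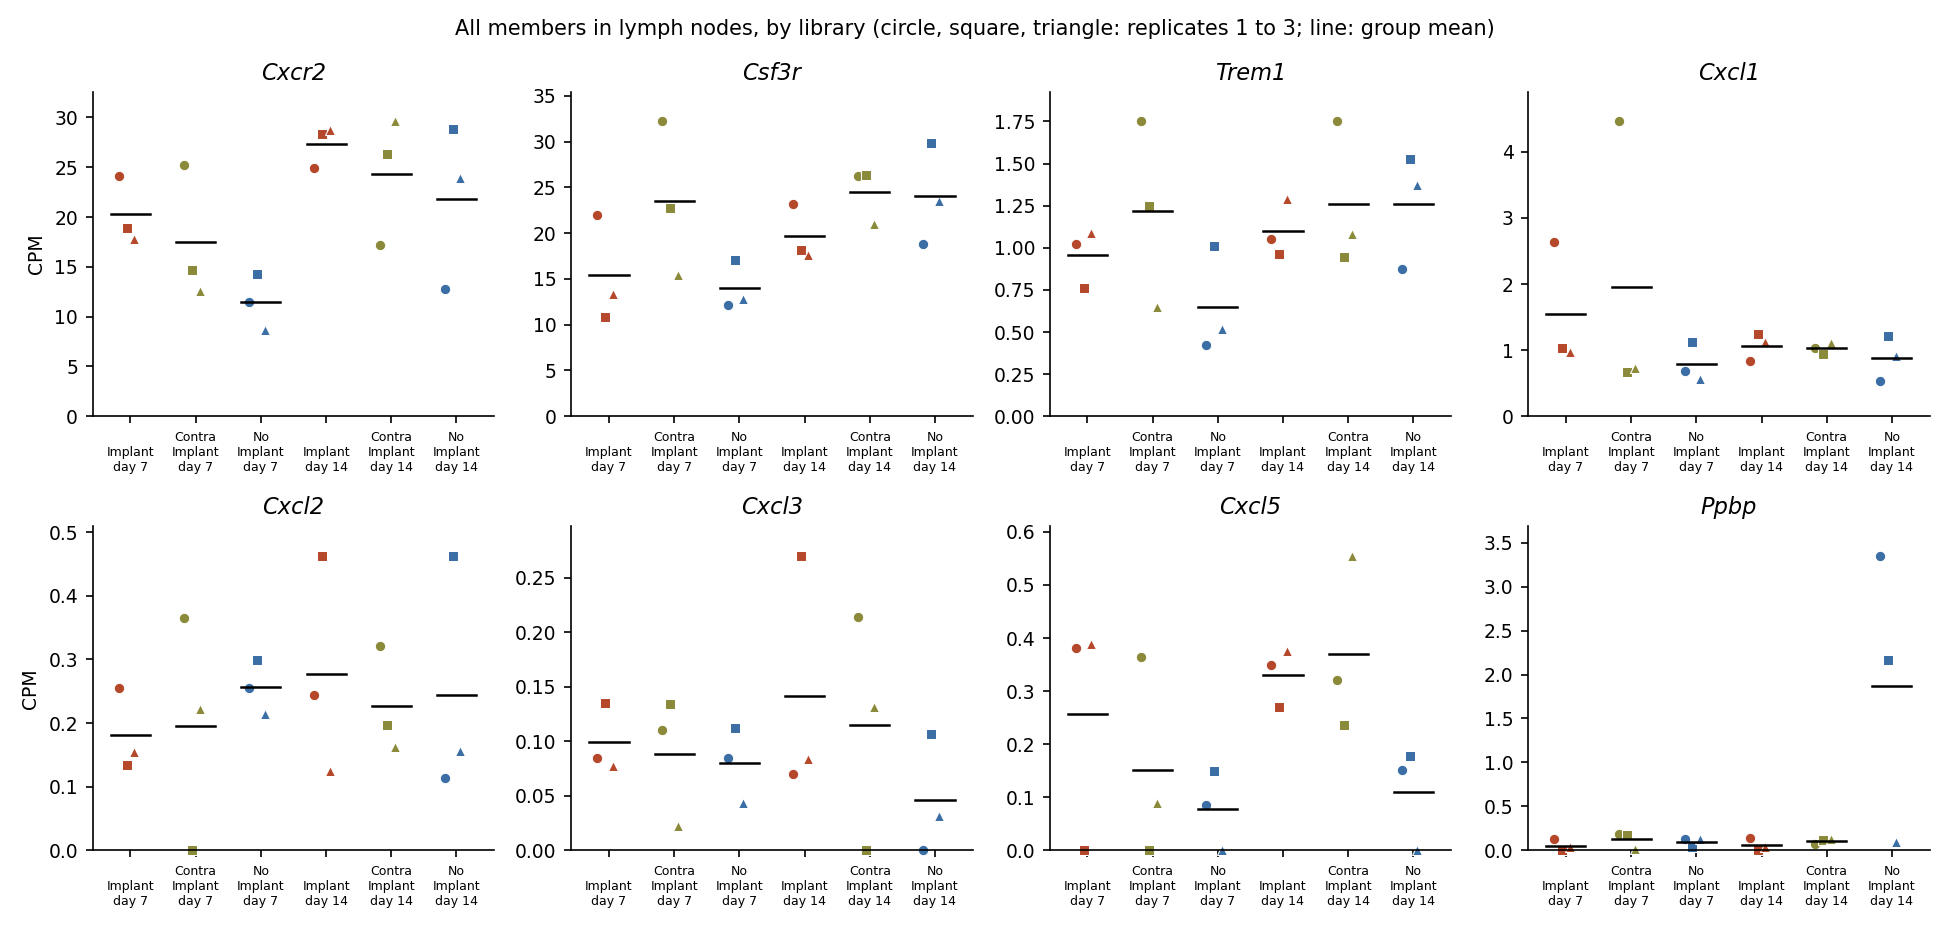
CPM of the 8 genes in each lymph node library on days 7 and 14, on linear axes that differ between panels, in the order Implant, ContraImplant and NoImplant; marker shapes are replicates and lines are group means. Cxcr2 and Csf3r lie between 8.62 and 32.2 CPM, and Ppbp rises above the baseline in 2 NoImplant libraries of day 14.

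No comparison of node groups by edgeR called any of the 4 genes tested. Of all 18312 genes tested, edgeR called 0.0437% for Implant over NoImplant on day 7 and 5.97% on day 14. It called 0.715% for Implant over ContraImplant on day 7 and 0% on day 14, and 0% for ContraImplant over NoImplant on either day. DESeq2 called none of the 4 in these comparisons either. At an unadjusted p under 0.05 stood Cxcr2 for Implant over NoImplant on day 7, Csf3r for Implant over ContraImplant on day 7, Csf3r and Trem1 for ContraImplant over NoImplant on day 7, and no gene of the 4 on day 14. Tests of whether the Implant difference changed between days 7 and 14 called none of the 4 and 0% of all genes, by edgeR, and no unadjusted p of the 4 was under 0.05.

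Between the days, the smallest p-values were those of NoImplant nodes. Day 14 over day 7 in NoImplant nodes gave log2 fold changes of 0.92 ± 0.31 for Cxcr2 (unadjusted p = 0.00846, adjusted p = 0.144), 0.78 ± 0.28 for Csf3r (adjusted p = 0.165) and 0.94 ± 0.39 for Trem1 (adjusted p = 0.219), where 0.0164% of all genes were called. Csf3r did not overlap between these days, as was so for 12.2% of all genes. DESeq2 called Cxcr2 there (adjusted p = 0.0444), with 4.81% of all genes. Implant and ContraImplant nodes gave smaller values for Cxcr2, 0.43 ± 0.30 and 0.48 ± 0.30, and 0% of all genes were called in either. In Implant nodes Cxcr2 did not overlap between the days, as was so for 9.67% of all genes. The difference between Implant and NoImplant in this change was -0.49 ± 0.43 for Cxcr2 (adjusted p = 0.927).

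In the wider lists, 4 of the 18 neutrophil attractant genes tested were called for Implant over NoImplant on day 14, with Il17ra higher (0.34 ± 0.09, adjusted p = 0.0389) and 3 lower, where 3.44% of all genes were called higher and 2.53% lower. With scaling by library size alone 1 was higher and 1 lower. The lower genes were Ltb4r1, the leukotriene B4 receptor (-1.08 ± 0.25, adjusted p = 0.0299), the NF-kappaB inhibitor Nfkbia (-0.27, adjusted p = 0.0427) and Cxcl12, a chemokine that holds neutrophils in the marrow (-0.82 ± 0.23, adjusted p = 0.0486). Of 18 neutrophil markers tested, Itgam, the integrin of myeloid cells, was lower in Implant than in NoImplant nodes on day 14 (-0.93 ± 0.22, adjusted p = 0.0310). It was also lower than in ContraImplant nodes on day 7 (-1.30 ± 0.23, adjusted p = 0.0319), where 0.541% of all genes were called lower. Neutrophil markers as a whole summed to between 105 and 145 CPM in Implant nodes, 136 and 196 CPM in ContraImplant nodes, and 122 and 146 CPM in NoImplant nodes on day 14.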

How the data were processed

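RNA was extracted from flash-frozen tissue, with Trizol for joint tissue and RLT buffer for nodes, and libraries were made with the NEBNext Ultra II kit, per the labels' protocols. The submitters' processing notes name fastp, STAR and the mm10 build without versions. The sources used here name no counting program or strand setting. The deposited tables hold the authors' raw read counts per Ensembl gene, 36604 genes for the joint and 54752 for the nodes, of which 36591 and 54723 matched a symbol in the GENCODE M21 annotation.

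From these counts, edgeR 4.0.16 (R 4.3.3, limma 3.58.1) was run with TMM scaling, filterByExpr at a minimum count of 10 and glmQLFTest, in 1 fit of 6 groups per tissue and without a replicate block, over 16149 joint and 18312 node genes. SE is the log2 fold change divided by the square root of F. DESeq2 1.42.0 was an alternative, run without the filter on low counts. Its shares of all genes are over the genes to which it gave an adjusted p. Others were scaling by size factors or by library size only, no filter, a block, a fit of the 2 groups alone and leaving out each library. Genes below the filter got exact permutation tests (scipy 1.17.1, Python 3.11.15). Procedures were tested on simulated data. Intervals of count ratios cover counting error only. No 2 replicates agreed within sampling noise (chi-square per degree of freedom at least 8.27).

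Implant and ContraImplant nodes with the same number share a mouse, per the file headers; their deviations from group means correlated at 0.352, 0.106 and 0.121 on day 7 and 0.402, 0.179 and 0.366 on day 14. The members and lists were chosen with earlier results of these data known. From each list the text names up to 4 genes with the smallest adjusted p in a comparison. Csf3, Cxcr1, Il1b, S100a8, Ly6g, Camp, Elane, Mpo and the platelet genes in nodes were named after their values were seen. So were Gp9, Treml1 and Clec1b in the joint. A gene named by this rule and a gene near Cxcr2 in profile are not reported here.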

Additional observations from a re-analysis of the deposited data

Results flagged for a closer look

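A library that stands apart from the other 3 was sought in 48 joint groups of 4 libraries. Of these groups 10 had one, over 6 of the 8 genes. Chance flags about 1 in 20 groups if they are independent. Here the 8 genes were measured in the same libraries, so 10 of 48 cannot be set against that rate. Of the 10, 6 were RST day 21 replicate 2, which was high for Cxcl1 (3.27 CPM), Cxcl2 (15.7 CPM), Cxcl3 (5.24 CPM), Cxcl5 (15.7 CPM), Csf3r (14.8 CPM) and Trem1 (4.28 CPM). RST day 14 replicate 2 was high for Cxcl1 (4.64 CPM). RST day 35 replicate 4 was high for Cxcl2 (3.49 CPM) and Csf3r (2.93 CPM). LST day 35 replicate 4 was the one LST library with a Cxcl3 count (0.0512 CPM).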

How the results depend on the processing

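Scaling by size factors or by library size only kept every count of the 8 genes called within 1.5 times. For RST day 35 over LST, where edgeR called 0, DESeq2 called 4 (4.4% of all genes), a fit of the 2 groups alone 4 (6.09%), no filter 2 (2.05%) and the replicate block 1 (3.45%; Cxcl3, adjusted p = 0.0368). For RST day 7 over day 3, where 1 was called, no filter called 2 (15.9%) and the 2 groups alone 3 (37%). For RST day 35 over day 21, where 1 was called, no filter called 3 (3.11%) and the 2 groups alone 0 (0%). DESeq2 called 1 for NoImplant day 14 over day 7 (4.81%), and no filter called 1 for Implant over NoImplant on day 14 (1.97%; Ppbp, -4.76, adjusted p = 0.0147). The causes were not tested.

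Leaving out 1 library gave, over LST, between 7 and 8 calls for RST day 3, always 7 for RST day 7, between 7 and 8 for RST day 14, between 5 and 7 for RST day 21, and 0 or 1 for RST day 35 (1 without RST day 35 replicate 1). It gave 0 to 1 for day 7 over day 3, 1 to 4 for day 14 over day 7 (4 without RST day 14 replicate 2), 0 to 4 for day 21 over day 14, 0 to 3 for day 35 over day 21 (3 without RST day 21 replicate 3), 7 to 7 for day 35 over day 3, and 6 to 8 for change over RST days. In nodes it gave 0 to 1 for NoImplant day 14 over day 7 (1 without NoImplant day 14 replicate 1, where 1.85% of all genes were called) and 0 to 0 elsewhere.

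Signs that turned were of uncalled values. Cxcr2 in RST day 35 over LST was 0.03, ran from -1.28 to 0.61 with a library left out, and was 0 in a fit of the 2 groups alone. Cxcl1 ran from -0.13 to 0.51 for NoImplant day 14 over day 7, from -0.95 to 1.12 for Implant over ContraImplant on day 7, and from -0.17 to 1.69 for ContraImplant over NoImplant on day 7. Trem1 ran from -0.64 to 0.07 for Implant over ContraImplant on day 7, and Csf3r from -0.21 to 0.34 for Implant over NoImplant on day 7.

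Deviations of joint libraries with the same replicate number correlated at 0.083 to 0.191 between RST and LST day 35 and at 0.092, 0.678, 0.473 and 0.127 between RST days 21 and 14, and below 0 for every number between RST days 7 and 3. In no joint comparison was every correlation over 0.1, and the main fit did not pair libraries by number. These correlations cannot settle whether the numbers mark an animal. Nodes of one mouse gave as little as 0.106, and nodes of different mice gave up to 0.32. With a replicate block 8 were called for RST day 14 over LST, 7 higher and Ppbp lower, and 5 for day 21, Cxcl1 being lost (1.83, adjusted p = 0.0516). The animal block in the nodes changed no call. Low LST counts (1 to 6 over 4 libraries for Cxcl2, Cxcl3, Cxcl5 and Trem1) limit fold changes against LST.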
